A study of Mus musculus with 2 samples.

Results

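The Siglec receptors described here are Siglecf, Siglece, Siglec1 and Cd33, 4 of the 31053 genes in the count tables, chosen by symbol. They were chosen with their levels in these libraries known, so where each gene was high or low is a description and not a finding. Levels are unique molecular identifiers (UMIs, counted RNA molecules) of a gene counted per 1e6 UMIs of the same cells (CPM). The libraries count the 3' end of each transcript, so CPM was not divided by transcript length.

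The cells came from C57BL/6 mice that had zymosan, a yeast cell wall preparation that draws in leukocytes, injected into the eye. One group received antiserum labelled NRS, which is normal rabbit serum in the study, and the other received antiserum labelled aCXCR2, against the chemokine receptor CXCR2. In both groups cells taken from the vitreous and rinsed off the retina were purified on Ly6G beads and made into 1 10x Chromium single-cell library. How many animals each library pools is not stated. Nothing below has a replicate, no test between the groups was possible, and the intervals are 95% intervals that cover counting error only.

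Siglecs are sialic acid binding lectins of the immunoglobulin superfamily, and most of the CD33-related ones carry tyrosine motifs (ITIMs) in their tail that recruit the phosphatases SHP-1 and SHP-2 and damp activation. Siglecf is best known as a surface marker of mouse eosinophils and alveolar macrophages and has also been described on neutrophils in inflamed or damaged tissue. Siglece is an inhibitory receptor of neutrophils, monocytes and macrophages. Mouse Cd33 is a myeloid receptor whose tail differs from that of its human namesake, and Siglec1 (sialoadhesin, CD169) is a long adhesion receptor of macrophages without an ITIM.

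After a filter on barcodes, 5655 NRS and 4826 aCXCR2 cells remained, with a median of 4759 and 10384 UMIs. Clusters built without the 4 receptors were scored on marker genes. Neutrophil-scoring clusters held 3672 NRS and 2663 aCXCR2 cells, 64.9% and 55.2% of the cells, and macrophage-scoring clusters held 606 and 1768, 10.7% and 36.6%, so the Ly6G selection left many other cells. The level of Ly6g itself in neutrophil-scoring cells was 11.6 CPM (NRS) and 119 CPM (aCXCR2). Of the 9 neutrophil-scoring clusters, clusters 1 and 4 had rod photoreceptor markers scoring at least 0.5 times as high as neutrophil markers, and they were left without a cell type name. Their neutrophil scores were low, at 0.167 and 0.101, against 0.292 in cluster 0, the next lowest, and 0.162 in macrophage-scoring cluster 11. The rod gene Gnat1 stood there at 94.8 and 74.7 CPM in NRS, against 94.6 CPM over all neutrophil-scoring cells. The libraries shared 101 barcodes, and 58 NRS and 59 aCXCR2 kept cells carried one. Leaving these cells out kept Siglecf in neutrophil-scoring cells at 28.1 and 18.7 CPM. The doublet caller marked 0 of 5655 and 4 of 4826 cells, against 331 and 214 doublets expected from loading. It thus did not work on these data, so doublets remain in every value below, also where the highest doublet scores were removed.

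Siglecf, Cd33 and Siglece lie in a cluster of Siglec genes on mouse chromosome 7, where GENCODE M21 (GRCm38) places Siglecf (ENSMUSG00000039013) at 43351341 to 43359531 on the plus strand, Cd33 (ENSMUSG00000004609) at 43524216 to 43544428 on the minus strand and Siglece (ENSMUSG00000030474) at 43651070 to 43660161 on the minus strand. Siglec1 (ENSMUSG00000027322) lies on chromosome 2 at 131069220 to 131086765 on the minus strand. RefSeq promoter windows on GRCm38.p6 were matched for 3 of the 4 genes, and the 190 bases before each start are shown because these genes were high in the same cell class. Siglecf is read from the plus strand at chr7:43351151-43351340, Siglece from the minus strand at chr7:43660162-43660351 and Cd33 from the minus strand at chr7:43533172-43533361, and each is written 5′ to 3′ with capitals for the longest run that Siglecf and Cd33 share. The RefSeq start used for Cd33 lies inside the GENCODE gene, because a longer transcript there begins farther upstream, so the Cd33 window is not that of the outermost start.
Siglecf: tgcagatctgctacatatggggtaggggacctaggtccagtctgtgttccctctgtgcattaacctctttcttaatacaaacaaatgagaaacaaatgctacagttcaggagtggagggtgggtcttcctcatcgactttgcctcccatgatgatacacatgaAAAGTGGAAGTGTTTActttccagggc
Siglece: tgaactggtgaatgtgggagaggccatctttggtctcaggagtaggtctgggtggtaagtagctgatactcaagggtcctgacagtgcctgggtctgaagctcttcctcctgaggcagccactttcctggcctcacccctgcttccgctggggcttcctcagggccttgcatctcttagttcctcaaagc
Cd33: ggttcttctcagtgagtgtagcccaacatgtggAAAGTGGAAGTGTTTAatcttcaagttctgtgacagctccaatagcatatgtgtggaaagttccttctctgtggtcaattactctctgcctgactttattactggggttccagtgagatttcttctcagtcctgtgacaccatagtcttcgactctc
The shared run AAAGTGGAAGTGTTTA is 16 bases long and starts at position -27 from the Siglecf start and at position -157 from the Cd33 start. Of 32851 mouse promoter windows of 250 bases, 2 held it on either strand, those of Siglecf and Cd33, which is 0.00609%. The run was picked because these windows share it, so both matches were fixed in advance and the count is a description only. Siglece shared no run longer than 9 bases with either gene. The run holds the letters GGAAGT, an ETS-type core that 19.7% of all windows hold on either strand. In the 250 bases the PU.1-type core GAGGAA was found 1 time at Siglecf, 3 times at Siglece and 1 time at Cd33, against 23.3% of all windows with at least 1 match. The Runx-type letters TGTGGT occurred 1 time at Cd33 and in 14% of windows, while the C/EBP-type TTGCNNAA (9.56% of windows) had no match at the 3 genes. No binding was measured, so these matches describe the letters alone.

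Siglecf RNA was found mainly in neutrophil-scoring cells, where it stood at 28.1 CPM in NRS (25.7 to 30.6, 501 UMIs) and 18.7 CPM in aCXCR2 (17.0 to 20.5, 438 UMIs). These cells held 85.3% of all Siglecf UMIs of the NRS library and 93.2% of those of the aCXCR2 library. Among these cells 7.22% held a Siglecf UMI in NRS and 10.6% did in aCXCR2, at median depths of 4559 and 7652 UMIs per cell. At an equal depth of 1000 UMIs the shares were 2.35% (1.87 to 2.91, 81 of 3452 cells) and 1.88% (1.39 to 2.47, 49 of 2613 cells), and 220 and 50 shallower cells were left out. The order of the unthinned shares went against the CPM, and the intervals of the thinned shares overlap.

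Most Siglecf-positive cells carried few molecules. In NRS, 157 neutrophil-scoring cells had 1 Siglecf UMI, 56 had 2 and 52 had 3 or more, and in aCXCR2 the numbers were 201, 46 and 35. The highest count was 9 in both libraries. In rod-like cells, which should lack the gene, Siglecf was detected in 1.48% of the NRS cells and 0.493% of the aCXCR2 cells at median depths of 5792 and 5796 UMIs, and none at 1000 UMIs (0 of 591 and 0 of 197 cells, which allows up to 0.508% and 1.52%). The share in neutrophil-scoring cells was above the rod share in both libraries before thinning, and at 1000 UMIs the rod limit lay below the interval of the neutrophil-scoring cells in NRS and within it in aCXCR2. Lens-like cells of NRS did not lie below the neutrophil-scoring cells, with a Siglecf UMI in 11.3% of 62 cells (4.66 to 21.9). At 1000 UMIs 1 of 53 had one (1.89%, 0.0478 to 10.1), and both intervals include the NRS neutrophil-scoring shares of 7.22% and 2.35%. Macrophage-scoring cells had 1.35 CPM (NRS) and 0.459 CPM (aCXCR2), whose intervals overlap those of the rod-like cells at 1.58 and 0.626 CPM. Cluster 9 of NRS had 12.9 CPM (4.73 to 28.1), on 6 UMIs in 30 cells, and per 1000 S100a8 UMIs the macrophage-scoring cells had 2.69 and 0.277 Siglecf UMIs against 1.68 and 0.245 in neutrophil-scoring cells.

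Siglece and Cd33 were more abundant and far more widely spread over the neutrophil-scoring cells than Siglecf. Siglece stood at 226 CPM in NRS (219 to 233) and 349 CPM in aCXCR2 (342 to 357), with a UMI in 48.8% and 78.1% of the cells and, at 1000 UMIs, in 18.7% and 27.1%. Cd33 stood at 229.5 CPM in NRS (223 to 237) and 418 CPM in aCXCR2 (409.6 to 426), with a UMI in 51.1% and 83.4% of the cells and, at 1000 UMIs, in 20% and 33.7%. Within NRS the CPM intervals of Siglece and Cd33 overlap, and within aCXCR2 Cd33 was the higher. In rod-like cells Siglece had 18.0 and 21.9 CPM, with a UMI in 10.5% and 6.90% of cells and, at 1000 UMIs, in 0.508% and 1.02%. Cd33 there had 14.9 and 26.9 CPM, with a UMI in 11.2% and 7.88% of cells and, at 1000 UMIs, in 1.18% and 1.52%.

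The rod levels were set against S100a8, an abundant neutrophil RNA. Per 1000 S100a8 UMIs the neutrophil-scoring cells had 13.5 Siglece UMIs in NRS and 4.59 in aCXCR2, and the rod-like cells had 15.8 and 6.30. Cd33 gave 13.7 and 5.49 in neutrophil-scoring cells against 13.1 and 7.74 in rod-like cells. The rod values lie near the neutrophil ratios in NRS and above them in aCXCR2, and the source of this RNA in rod-like cells was not tested. Macrophage-scoring cells stood well above these ratios, with 42.1 and 31.0 Siglece UMIs and 87.9 and 28.0 Cd33 UMIs per 1000 S100a8 UMIs. Their levels were 21.1 CPM in NRS (18.9 to 23.5) and 51.2 CPM in aCXCR2 (49.4 to 53.2) for Siglece, and 44.0 CPM (40.8 to 47.5) and 46.4 CPM (44.6 to 48.2) for Cd33.

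Siglec1 had the opposite distribution. Macrophage-scoring cells held 95.8% of its UMIs in NRS and 98.0% in aCXCR2, at 20.4 CPM (18.2 to 22.8, 318 UMIs) and 10.7 CPM (9.82 to 11.6, 581 UMIs). A UMI was seen in 26.2% and 21.7% of these deep cells, whose medians were 23281 and 30048 UMIs. At 1000 UMIs only 6 of 593 and 19 of 1762 cells kept one (1.01% and 1.08%), while at 10000 UMIs 62 of 385 (16.1%) and 135 of 1668 (8.09%) did, which leaves out the shallower 221 and 100 cells. The order at 1000 UMIs did not follow the CPM and is not read. In neutrophil-scoring cells Siglec1 gave 7 and 9 UMIs in all, 0.392 and 0.384 CPM, and rod-like cells gave 3 and 0.

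The other 5 Siglec family genes were low in neutrophil-scoring cells. Siglecg, an inhibitory Siglec best known on B cells, had 15.7 CPM under NRS and 4.35 CPM under aCXCR2, Mag, the myelin-associated glycoprotein, at 3.47 and 0.682 CPM, and Cd22, an inhibitory receptor of B cells, at 0.560 and 0.426 CPM. Cd22 was higher in macrophage-scoring cells, with 24.1 CPM (NRS) and 6.06 CPM (aCXCR2), and GENCODE M21 places an antisense gene over it. Siglech, a receptor of plasmacytoid dendritic cells, and Siglec15, a receptor of osteoclasts and macrophages, had 0 UMIs in neutrophil-scoring cells of both libraries.

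**Figure D1:**
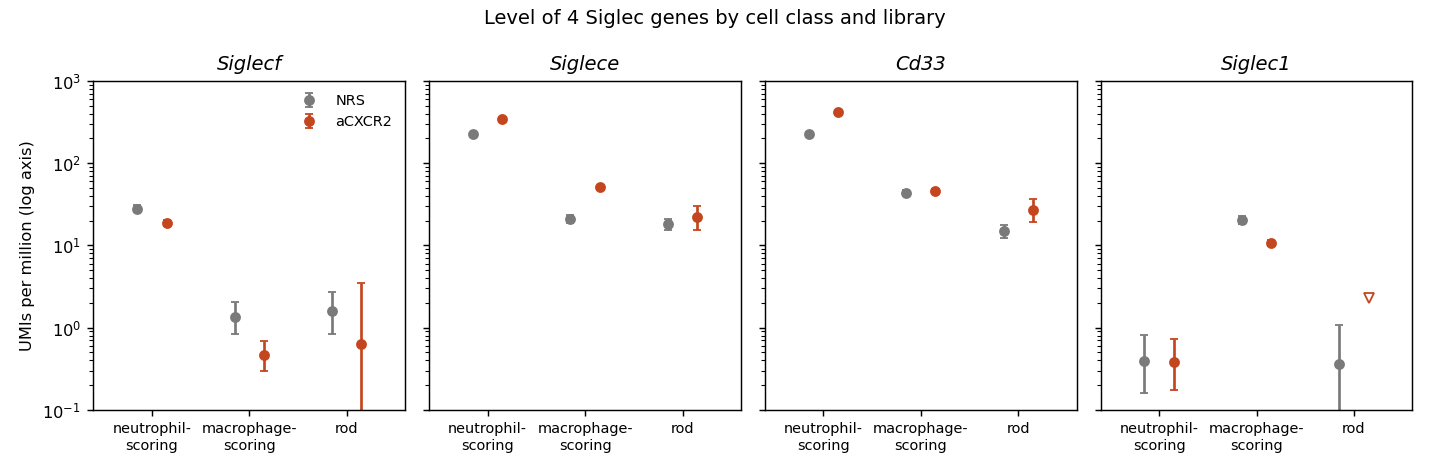
Level of each receptor in 3 cell classes on a logarithmic axis (CPM), with NRS and aCXCR2 side by side, 1 library each. Bars are exact Poisson 95% intervals and an open triangle marks the upper limit where no UMI was seen, and rod bars cut by the lower edge run further down; Siglecf, Siglece and Cd33 are highest in neutrophil-scoring cells and Siglec1 in macrophage-scoring cells at 20.4 and 10.7 CPM.

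Among neutrophil-scoring clusters Siglecf was concentrated in cluster 8, whose leading genes were Lst1, Mmp9 and Wfdc21. In NRS cluster 8 had 96.3 CPM (85.9 to 108, 315 UMIs in 619 cells), followed by cluster 12 at 45.6, cluster 10 at 42.7, cluster 3 at 37.3 and cluster 5 at 26.0 CPM. The last 3 clusters were at 5.55 (cluster 1), 5.39 (cluster 4) and 4.07 CPM (cluster 0). Only the steps from cluster 8 to 12 and from cluster 5 to 1 have intervals that do not overlap, so the clusters fall into a top, a middle and a low level. In NRS, 22.3% of cluster 8 cells had a Siglecf UMI, 7.59% at 1000 UMIs.

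In aCXCR2 cluster 8 was again the highest at 67.0 CPM (41.5 to 102), but it held only 45 cells and 21 Siglecf UMIs. With the highest doublet scores removed, the top cluster of each library had 80.0 and 37.1 CPM, and with coarser clusters (resolution 0.5) 49.8 and 32.7 CPM. The cluster with the most Siglecf UMIs in aCXCR2 was cluster 3, led by S100a9, S100a8 and Lcn2, with 222 of the 438 in neutrophil-scoring cells, in 720 cells, 35.5 CPM (31.0 to 40.5), and a UMI in 18.5% of cells. Clusters 10 and 12 followed at 19.7 and 19.5 CPM, and clusters 13, 4, 5, 0 and 1 at 12.6, 7.60, 7.21, 5.63 and 2.06 CPM. The intervals do not overlap from cluster 8 to 3 and from cluster 3 to 10. Cluster 8 of NRS and cluster 3 of aCXCR2 differed in neutrophil genes. Ly6g was 3.97 against 73.8 CPM, Retnlg 4.58 against 1056 CPM, S100a8 16622 against 59487 CPM and Cxcr2 294 against 517 CPM. This pair differs in both cluster and library. Among NRS cells alone, cluster 3 held 63.9 CPM of Ly6g, 146 of Retnlg, 50393 of S100a8 and 584 of Cxcr2. Among aCXCR2 cells alone, cluster 8 held 0, 118, 19342 and 275 CPM of the same genes. Cluster 3 thus exceeded cluster 8 in these genes inside each library, but Retnlg also differed between the libraries inside each cluster. Clusters 1 and 4, the lowest in NRS for Siglecf besides cluster 0, are the clusters left without a name.

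Siglece and Cd33 followed other orders. Siglece was highest in cluster 5 of NRS at 504 CPM (464 to 546) and in cluster 3 of aCXCR2 at 424 CPM (408 to 440.4), and lowest in cluster 4 of both libraries, at 69.8 and 81.0 CPM. Cd33 was highest in cluster 12 of both, at 697 CPM (652 to 743) and 721 CPM (621 to 833), and lowest in cluster 1, at 122 and 156 CPM. Cluster 12 was also the highest in Cxcr2, at 2786 and 2316 CPM. In aCXCR2 cluster 13, the Retnlg-rich cluster at 12867 CPM of Retnlg, had 663 CPM of Cd33 (634 to 692), 284 CPM of Siglece (265 to 303) and 12.6 CPM of Siglecf (8.98 to 17.3). The cluster highest for Siglecf thus was not the highest for either of the other receptors.

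**Figure D2:**
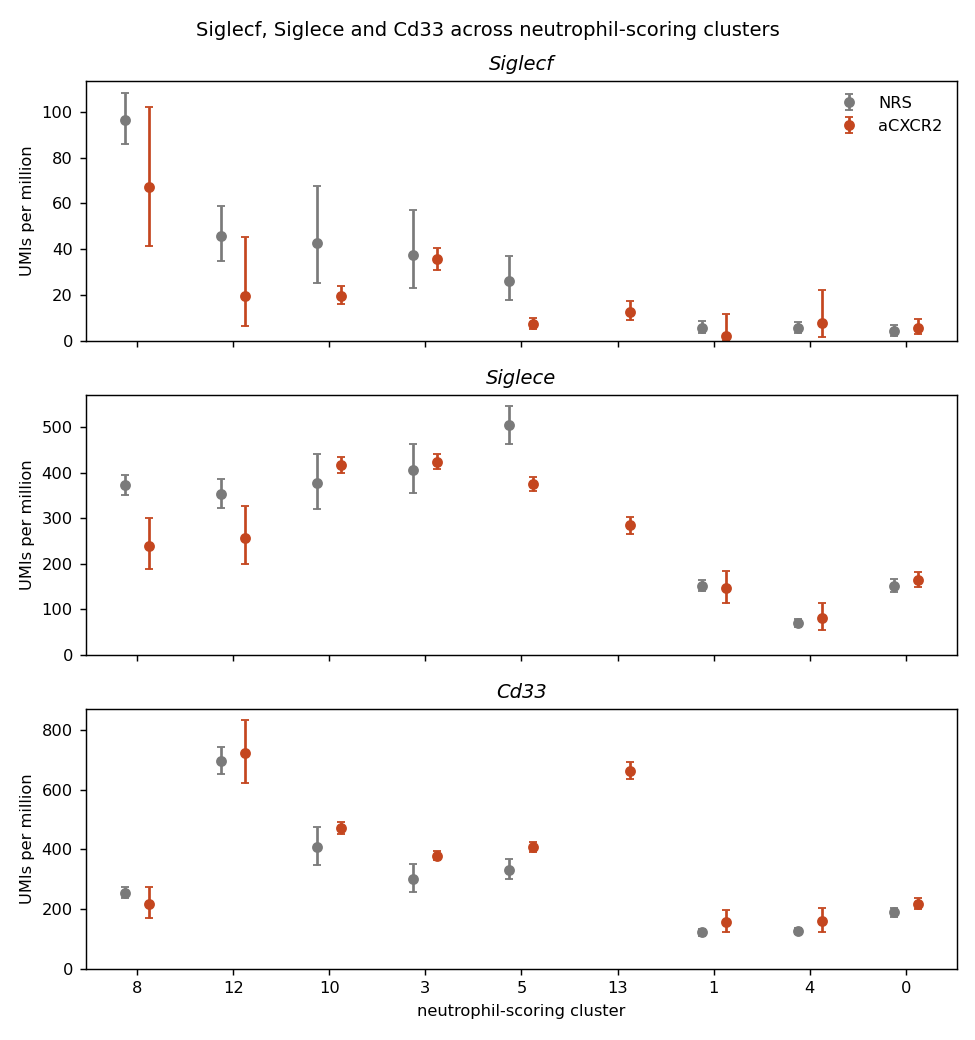
Level (CPM) of Siglecf, Siglece and Cd33 in each neutrophil-scoring cluster, NRS and aCXCR2 side by side with exact Poisson 95% intervals; cluster 13 has under 20 NRS cells and shows aCXCR2 only. Siglecf peaks in cluster 8 (96.3 and 67.0 CPM) and Cd33 in cluster 12 (697 and 721 CPM).

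Between the libraries, Siglecf in neutrophil-scoring cells was lower in aCXCR2 by the total count, with a log2 ratio of -0.59 (-0.78 to -0.40), but this direction turned to 0.14 under TMM scaling, to 0.10 under median-of-ratios scaling and to 0.50 without cluster 8. Siglece was higher in aCXCR2, at 0.63 (0.58 to 0.69), and Cd33 likewise, at 0.86 (0.81 to 0.92), and both kept this direction under these settings. The 3199 genes tested had 50 CPM or more in a library, and 4.03% of them passed 2-fold upward and 19.7% downward. By the total count neither Siglece nor Cd33 reached 2-fold, but both did under TMM (1.35 and 1.59) and median of ratios (1.32 and 1.55), while Siglecf and Siglecg did not reach 50 CPM. In the same cells S100a8, an alarmin, had 16754 CPM under NRS against 76126 CPM under aCXCR2, and the median log2 ratio of all tested genes was -0.49, with a shift of 0.72 under TMM and 0.69 under median of ratios. With these scalings 509 and 485 genes were higher and 76 and 79 lower, against 129 and 631 by the total count. Siglecg had a log2 ratio of -1.85 (-2.20 to -1.52), larger in size than either shift.

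Within clusters the class-wide direction of Siglecf held in only some. Its log2 ratio was -0.49 in cluster 8 (-1.23 to 0.12) and -0.10 in cluster 3 (-0.72 to 0.65), both with intervals across 0. It was -1.86 in cluster 5 (-2.57 to -1.12) and -1.15 in cluster 10 (-1.86 to -0.30), and cluster 12 gave -1.10 (-2.90 to 0.07). Cluster 8 made up 619 of the NRS and 45 of the aCXCR2 cells, and clusters 1 and 4 made up 862 and 725 against 105 and 45. Siglece, higher in aCXCR2 over the class, was lower there in cluster 5, at -0.43 (-0.56 to -0.29), and in cluster 8, at -0.63 (-0.99 to -0.30). Cd33 was higher in cluster 3, at 0.32 (0.10 to 0.56), and in cluster 5, at 0.30 (0.14 to 0.46), and its intervals in clusters 8, 10 and 12 include 0. With clusters 1 and 4 left out, the class values were -1.26 for Siglecf, 0.18 for Siglece and 0.45 for Cd33.

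**Figure D3:**
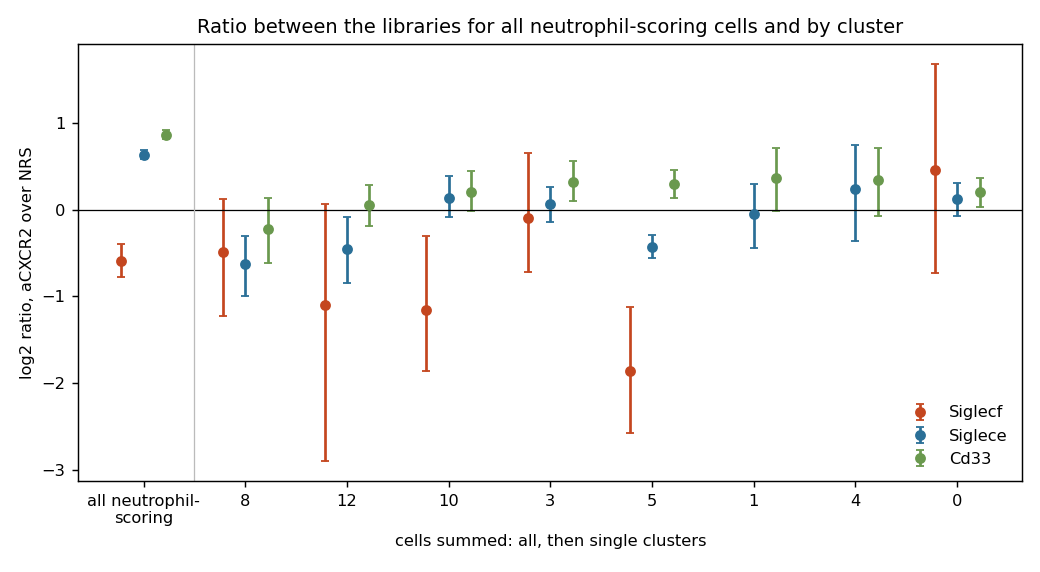
Log2 ratio of aCXCR2 over NRS (CPM by total UMIs) for Siglecf, Siglece and Cd33 over all neutrophil-scoring cells and by cluster, with exact conditional 95% intervals; points with under 4 UMIs in a library are left out. Siglecf over all cells is -0.59 but turns to 0.14 under TMM, 0.10 under median of ratios and 0.50 without cluster 8, while Siglece and Cd33 over all cells are 0.63 and 0.86.

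In macrophage-scoring cells Siglec1 was lower in aCXCR2, at a log2 ratio of -0.93 (-1.13 to -0.73), and TMM and median-of-ratios scaling moved the median of all genes there by -0.01 and -0.03. The difference lay in the clusters with the most Siglec1. In cluster 2, led by Saa3, Apoe and Pf4, Siglec1 was 49.5 CPM in NRS (42.8 to 57.0) and 16.1 CPM in aCXCR2 (14.6 to 17.8), a log2 ratio of -1.62 (-1.87 to -1.36). Cluster 14, led by Apoe and Fabp5, had 13.8 and 7.86 CPM. Cluster 11 had 5.02 and 6.77 CPM and cluster 9 had 2.15 and 4.94 CPM, and both pairs of intervals overlap. Mrc1, the mannose receptor, and Folr2, a folate receptor of resident macrophages, were highest in cluster 2 as well, at 589 and 125 CPM in NRS and 332 and 51.8 CPM in aCXCR2.

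Siglece in macrophage-scoring cells had a log2 ratio of 1.28 (1.12 to 1.45), above 2-fold but at 0.97 with a strict filter on cells, which ends that call. At least 2-fold higher were 4.63% of the 2853 genes tested, with 2.56% lower by as much and a median of 0.12. The clusters low in Siglec1 were high in Siglece, with 49.4 and 86.3 CPM in cluster 9 and 48.5 and 85.3 CPM in cluster 11, against 17.4 and 26.8 CPM in cluster 2 and 8.39 and 7.47 CPM in cluster 14. Within clusters the ratio was smaller, at 0.62 in cluster 2, 0.77 in cluster 9 and 0.81 in cluster 11, and cluster 9, with its high Siglece, had 30 NRS and 565 aCXCR2 cells. Cd33 over the class had a ratio of 0.07 (-0.05 to 0.20). It was -1.04 in cluster 2 and 0.50 in cluster 11, so its clusters moved in both directions.

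**Figure D4:**
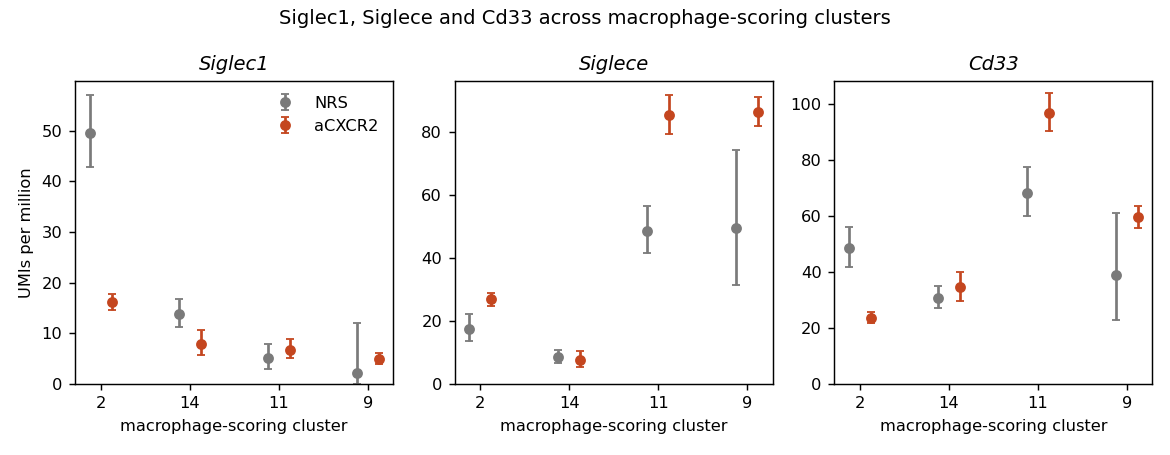
Level (CPM) of Siglec1, Siglece and Cd33 in the 4 macrophage-scoring clusters, NRS and aCXCR2 side by side with exact Poisson 95% intervals. Siglec1 is highest in cluster 2 (49.5 and 16.1 CPM) and Siglece in clusters 9 and 11.

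To describe the genes that go with Siglecf, neutrophil-scoring cells with a Siglecf UMI at 1000 UMIs (81 NRS and 49 aCXCR2 cells) were set against those without in the same library, and a gene was called when all its UMIs gave at least a 1.5-fold ratio in the same direction in both libraries. Depth was similar, with medians of 4124 and 4708 UMIs for cells with and without in NRS and 7403 and 7721 in aCXCR2. Of 2619 genes tested, 172 (6.57%) were higher and 101 (3.86%) lower, and the median log2 ratio was 0.21. A median-of-ratios scaling takes 0.19 and 0.29 off every log2 ratio and gives 57 higher and 186 lower. The cells with Siglecf were not spread evenly, since 46 of 81 in NRS lay in cluster 8 (56.8%, against 16.6% of the cells without) and 31 of 49 in aCXCR2 lay in cluster 3 (63.3%, against 26.7%).

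Scimp, a membrane adaptor of immune receptors that binds Lyn and Csk, had the highest mean ratio. It stood at 166 CPM in cells with Siglecf and 13.8 CPM in cells without in NRS (log2 ratio 3.6), and at 112 and 24.0 CPM in aCXCR2 (2.24). It was seen in 33.3% against 4.48% of NRS cells and in 42.9% against 11.7% of aCXCR2 cells. In cluster 8 of aCXCR2 cells, the highest in Siglecf there, Scimp was only 3.19 CPM, against 41.3 CPM in cluster 8 of NRS. Ptgs1, cyclooxygenase 1, followed with 268 and 49.0 CPM in NRS (2.45) and 112 and 38.9 CPM in aCXCR2 (1.54).

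The other high genes hold several signalling functions. Among regulators of G protein signalling, Rgs10 had log2 ratios of 1.62 in NRS and 1.91 in aCXCR2, the receptor kinase Grk6 1.84 and 1.43, and the G protein gamma subunit Gngt2 1.65 and 1.39. Gngt2 is also used as a cone marker, and it makes up 629 of the 631 CPM of the cone list in NRS cells with Siglecf, with Opn1sw, Opn1mw, Arr3 and Pde6h at 0 in both libraries. Ly6e, a GPI-anchored protein induced by interferon, had 1.97 and 1.25, and Epsti1, also interferon-induced, 1.81 and 1.26. Of the type I interferon list, members under 50 CPM in aCXCR2 went both ways. Rsad2 had -1.19 and -2.28 and Oasl1 -0.49 and -2.36, against 2.86 and 1.66 for Ifit2 and 0.95 and 0.66 for Ifit3. Igfbp6, which binds insulin-like growth factors, had 2.14 and 1.0, the ectonucleotidase Entpd3 1.83 and 1.33, and the beta-catenin inhibitor Ctnnbip1 1.72 and 1.37. Abi3, an actin regulator, had 2.19 and 1.75, the centrosome protein Cetn2 1.34 and 1.60, Tmx4, a thioredoxin-like protein of the endoplasmic reticulum, 1.49 and 1.44, and Fam105a 1.99 and 1.44.

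These names depend partly on which UMIs were drawn. In 9 other draws Ptgs1, Fam105a, Igfbp6 and Gngt2 were called in 9, Scimp, Grk6 and Ctnnbip1 in 8, Rgs10, Ly6e and Tmx4 in 4, Entpd3, Epsti1 and Cetn2 in 3, and Abi3 in 0. Abi3 still had a mean log2 ratio of 1.46 to 1.93 in these draws. Its level in aCXCR2 cells with Siglecf in the main draw, 51.2 CPM, lay just above the 50 CPM needed for testing. Within cluster 8 of NRS and cluster 3 of aCXCR2, the only ones with 20 cells of each kind, Scimp still had log2 ratios of 2.29 and 2.20 and Rgs10 of 1.80 and 1.68. Without cluster 8 Scimp had 4.19 in NRS and 2.30 in aCXCR2, but Rgs10 had 0.14 in NRS and was not called. Ptgs1 had 1.81 in cluster 8 and 0.58 in cluster 3, and Entpd3 2.79 and 0.04. Of the 172 higher genes, 50 (29.1%) were also among the 70 called within these clusters, of which they make up 71.4%.

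**Figure D5:**
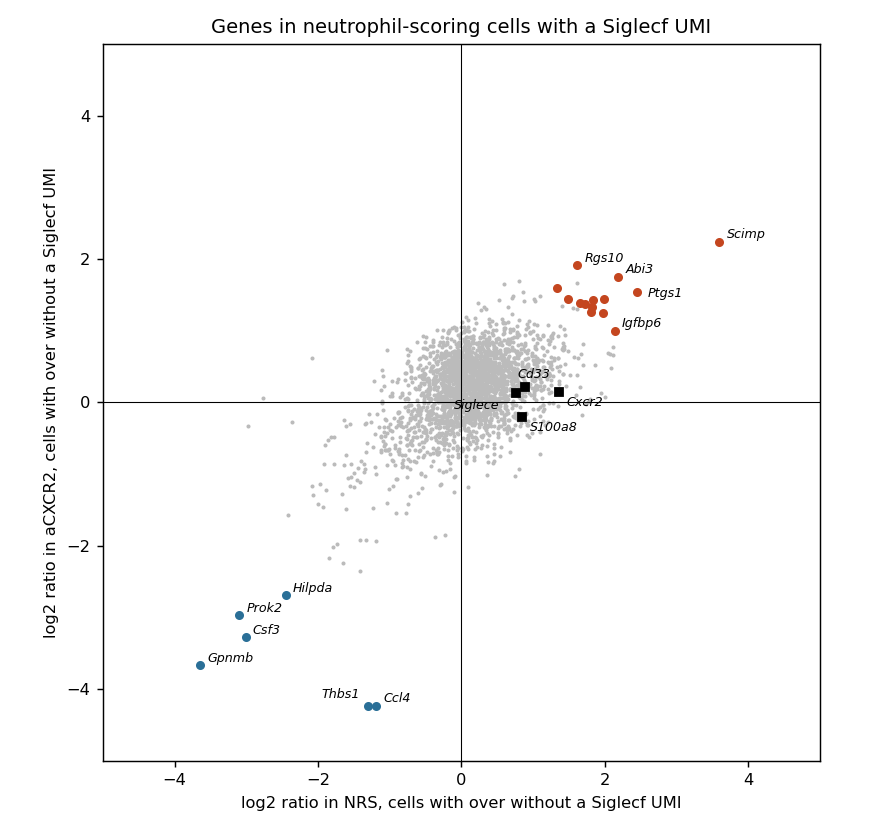
Log2 ratio of cells with over cells without a Siglecf UMI for each gene tested, NRS on the horizontal and aCXCR2 on the vertical axis, with the haemoglobin genes left out. Red points are the named higher genes, with Scimp at 3.6 and 2.24, blue points are named lower genes, with Csf3 at -3.01 and -3.28, and black points are Siglece, Cd33, Cxcr2 and S100a8, whose direction in aCXCR2 was not the same by total counts and by median of ratios for Siglece, Cd33 and Cxcr2.

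The lowest genes in cells with Siglecf were 4 haemoglobin genes, Hbb-bs, Hba-a2, Hbb-bt and Hba-a1, of which 10 cells held between 99.6% and 99.9% of the UMIs in each library. The other 6 include secreted factors and hypoxia or phagocyte genes. Gpnmb, a glycoprotein of lysosome-rich phagocytes, was 28.6 CPM in cells with and 372 CPM in cells without in NRS (-3.64) and 4.88 against 77.8 CPM in aCXCR2 (-3.67). Csf3, the granulocyte colony-stimulating factor, was 10.4 against 94.0 CPM (-3.01) and 7.32 against 83.1 CPM (-3.28). Prok2, a secreted chemoattractant, had log2 ratios of -3.10 and -2.97, and Hilpda, a lipid droplet protein induced by hypoxia, -2.45 and -2.69. Thbs1, thrombospondin 1, had -1.30 and -4.23, and the chemokine Ccl4 -1.19 and -4.23, of which the NRS values without cluster 8 were -0.51 and -0.38, under 1.5-fold. Within cluster 8 of NRS Gpnmb was 0.17, while Csf3, Prok2, Thbs1, Ccl4 and Hilpda were below 0 in both clusters.

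Siglecf marks eosinophils in other settings, but no UMI of an eosinophil marker was found in these cells. All 8 markers of that list, Epx, Prg2, Prg3, Ear1, Ear2, Ear6, Ccr3 and Il5ra, were at 0 in both libraries, and they summed to 4.33 and 3.78 CPM in the cells without. The 12 neutrophil markers summed to 58192 CPM in NRS cells with and 34696 CPM in those without, and to 136922 and 164166 CPM in aCXCR2. The 12 macrophage markers summed to 4484 against 5960.3 CPM and to 5444 against 4299.8 CPM, with Mrc1 and Ccr2 at 0 in NRS cells with Siglecf. The 10 rod markers summed to 922 against 785 CPM and to 68.3 against 90.8 CPM. The macrophage and rod sums moved in opposite directions in the libraries. The 7 dendritic markers summed higher in cells with Siglecf in both, at 1598 against 725 CPM and 1345 against 707 CPM, with Flt3, Xcr1, Cd209a and Ccr7 at 0 in both. The B cell list (64.9 against 28.0 CPM and 14.6 against 11.8 CPM) and the Muller glia list (49.4 against 32.7 CPM and 34.2 against 25.2 CPM) also summed higher in both. The part of these lists in the gene ratios was not tested.

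Neutrophil genes themselves gave no common direction. Cxcr2 had log2 ratios of 1.37 in NRS and 0.15 in aCXCR2, the latter -0.15 with median-of-ratios scaling. S100a8 had 0.85 and -0.20, Ly6g 0.94 and -0.74, and Retnlg -0.32 and -0.95. Arg1, the arginase gene, had -0.22 and 0.64. Ly6g in NRS rested on 8 UMIs in the cells with Siglecf, with an interval of -0.37 to 1.87. Ly6g and Arg1 were under 50 CPM in NRS, so they were not tested. Of the others none was called, and Retnlg was below 0 in both, with an NRS interval of -0.83 to 0.12.

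The other receptors went with Siglecf to different degrees. Siglecg had log2 ratios of 1.69 in NRS (46.8 against 14.9 CPM) and 2.37 in aCXCR2 (19.5 against 4.0 CPM), on 18 and 8 UMIs in the cells with Siglecf and under the 50 CPM needed for testing. Its NRS ratio was 0.35 without cluster 8, and its mean over the libraries ranged from 0.49 to 1.97 in 9 other draws. Cd33 had 0.89 and 0.22 and Siglece 0.76 and 0.13, whose aCXCR2 values turn to -0.07 and -0.16 with median-of-ratios scaling. At 1000 UMIs, 30.9% of NRS cells with Siglecf also had Siglece (21.1 to 42.1, 25 of 81 cells), against 18.5% of cells without (17.2 to 19.8). In aCXCR2 the shares were 22.4% (11.8 to 36.6, 11 of 49 cells) and 27.2%. Cd33 was seen in 28.4% (18.9 to 39.5) against 19.8% in NRS and 44.9% (30.7 to 59.8) against 33.5% in aCXCR2, and the intervals overlap except that of Siglece in NRS. Cd33 was seen in 29.2% of NRS cells with Siglece (25.7 to 32.9) and 17.9% of those without (16.5 to 19.4), and in aCXCR2 in 35.1% (31.6 to 38.8) and 33.2% (31.1 to 35.4), where the intervals overlap.

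Lists of related genes were read against the 6.57% higher and 3.86% lower among all genes tested. Of the Siglec signalling partners 11 were tested and 0 called, with a median log2 ratio of 0.29 against 0.21 over all genes. Ptpn6, which encodes SHP-1, had 0.81 in NRS and 0.25 in aCXCR2 (-0.05 with median-of-ratios scaling), and the Src kinase Fgr 1.05 and 0.24 (-0.06). Of the genes of sialic acid synthesis and transfer 3 were tested and 0 called, and the sialyltransferase St3gal4 had 1.03 and 0.31. Of the 2 tested sialidase genes 0 were called, with the lysosomal sialidase Neu1 at -0.53 and -0.62 and its protective partner Ctsa at 0.40 and 0.69. Of 6 tested surface proteins that carry sialic acid 0 were called, with Selplg, the P-selectin ligand, at 1.2 and 0.33.

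The other paired and inhibitory receptors were the one list with called genes, 4 higher and 0 lower of 18 tested, with a median of 0.35. Cd101, an immunoglobulin-superfamily protein of mature neutrophils, had log2 ratios of 1.40 and 1.34 (80.5 against 30.9 CPM in NRS and 122 against 48.6 CPM in aCXCR2). The inhibitory lectin Clec12a had 0.59 and 1.66, the activating paired receptor Pilrb1 1.04 and 0.75, and the activating lectin Clec5a 0.78 and 0.98. In 9 other draws they were called 7, 8, 2 and 5 times. Median-of-ratios scaling leaves Clec12a at 0.40 in NRS and Pilrb1 at 0.45 in aCXCR2, under 1.5-fold, and without cluster 8 Pilrb1 had 0.27 in NRS. Within the clusters with enough cells of each kind, the mean log2 ratio of Cd101 was 0.77. Those of Pilrb1, Clec5a and Clec12a were 0.55, 0.28 and 0.24 there, under 1.5-fold. How far the calls on this list follow the clusters in which Siglecf cells lay was not tested further. Of 9 tested genes of GM-CSF and TGF-beta signalling and 4 tested genes induced by type I interferon, 0 were called, with medians of 0.37 and 0.45. No gene of the eosinophil or the tissue macrophage list reached 50 CPM.

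Likeness across clusters was ranked separately. Over 17 cluster and library pairs and 2778 genes, the highest Pearson r with Siglecf (of log2 CPM with 10 CPM added) was 0.90 for the RNA-binding protein Celf2. Limd2, Sptlc2 and Arhgef1 followed at 0.89, Pbxip1 and Ptpn6 at 0.87, and Rgs2 and Arid1a at 0.86. Of these, Limd2 (1.35 and 0.62) and Rgs2 (1.41 and 0.75) were also called higher in cells with Siglecf. Siglece had 0.65, Cxcr2 0.57, Cd33 0.41 and S100a8 0.31. The pairs share libraries, and the cells were clustered on these other genes, so r is a description without a p.

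The same split was made for Siglece and Cd33, whose counts of called genes cannot be set against those of Siglecf. Many cells without a UMI at 1000 UMIs held one at full depth, where 48.8% and 78.1% of cells had Siglece and 51.1% and 83.4% had Cd33. Cells with a Siglece UMI (647 in NRS and 709 in aCXCR2) had 4 of 2317 genes higher (0.173%) and 23 lower (0.993%), led by the phosphatase gene Dusp2 at log2 ratios of 0.90 and 0.80. Ltb (1.17 and 0.42), Dusp16 (1.17 and 0.42), Plac8 (1.25 and 0.30), Bcl2a1d (0.81 and 0.69) and Gpr84 (1.02 and 0.42) followed by mean ratio, but Ltb, Dusp16, Plac8 and Gpr84 were under 1.5-fold in aCXCR2 and were not called. Cells with Cd33 (692 and 881) had 13 of 2348 genes higher (0.554%) and 14 lower (0.596%). The highest by mean ratio were Fgl2, a fibrinogen-like protein, at 1.59 and 0.81, and the neutrophil genes Cxcr2 at 1.66 and 0.66, Retnlg at 1.76 and 0.54, Lrg1 at 1.68 and 0.57, Hdc at 1.56 and 0.55 and Rab44 at 1.34 and 0.68, of which Retnlg, Lrg1 and Hdc were under 1.5-fold in aCXCR2 and not called.

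Siglec1 in macrophage-scoring cells went with genes of resident macrophages, but on few cells. At 1000 UMIs, 6 NRS and 19 aCXCR2 cells held a UMI, and 59 of 2571 genes were higher (2.29%) and 50 lower (1.94%). The highest by mean ratio were Folr2 at 3.17 and 1.27, Cela1 at 2.71 and 0.98, Ccl8 at 2.10 and 1.53, Spic at 2.36 and 1.24, Mrc1 at 1.59 and 1.28, and Ccl6 at 2.26 and 0.55, the last under 1.5-fold in aCXCR2 and not called. In NRS the cells with had a median of 3720.5 UMIs and those without 24530, so depth differed there. Of 6 tested genes of the tissue macrophage list 4 were higher (Mrc1, Folr2, Maf, Stab1), the list's median being 1.14 against 0.08 over all genes.

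At 10000 UMIs, where 62 and 135 cells had a Siglec1 UMI, 17 of 2535 genes (0.671%) were higher and 30 (1.18%) lower. Mrc1 was still called, at 297 against 157 CPM in NRS (0.91) and 261 against 169.8 CPM in aCXCR2 (0.62), as were Cela1 (1.13 and 0.88) and the scavenger receptor Stab1 (0.75 and 0.87). Folr2 had 1.25 and 0.67, with an aCXCR2 level under 50 CPM, and Ccl8 1.38 and 0.43. Spic, a transcription factor of red pulp macrophages, turned to -0.18 in NRS and 0.45 in aCXCR2. This depth was chosen after the few cells at 1000 UMIs had been seen.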

How the data were processed

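Ly6G-selected cells of the mouse vitreous were measured in 2 single-cell libraries, 1 per group. The authors deposited UMI counts per gene and barcode, and the deposited counts carry software version 3.0.0 per the file headers. Cell Ranger and Seurat were used, per the submitters' processing notes. Those notes list GRCh38 although the gene identifiers are mouse, and for the mouse build: not given in the sources used here. Gene positions are from GENCODE M21 (GRCm38) and promoter sequences from RefSeq (GRCm38.p6).

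The tables held 7314 and 5551 barcodes with 61386486 and 85748842 UMIs. A barcode was kept from 500 UMIs and 200 genes on, with mitochondrial UMIs up to 10%, which left out 22.7% and 13.1%. Both libraries were clustered together with scanpy 1.11.5 (2000 variable genes without the 4 receptors, 30 components, 15 neighbours, Leiden resolution 1 by leidenalg 0.10.2), giving 22 clusters. Each marker was scaled between its lowest and highest cluster, and a class scored the mean of its detected markers, so scores are relative to the other clusters. The rule that turned these scores into classes was set after seeing the data. Cluster names needed a second class to score under 0.5 of the first.

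Counts were summed per class and library. Intervals are exact Poisson (CPM), Clopper-Pearson (shares) and conditional binomial (ratios), all at 95%, and UMIs count molecules of 1 library and not animals. Where 0 was seen, 3 counts set the limit. Equal depth means a random draw of 1000 UMIs per cell. Ratios carry 0.5 added counts. A gene was tested from 50 CPM and called at 2-fold between libraries, or at 1.5-fold in both libraries for cells with a receptor. The named genes were the 15 highest and 10 lowest by mean log2 ratio with a counting interval on the same side of 0 in both libraries (6 highest for the other receptors), without mitochondrial genes, Rik or Gm models, or any gene more than 5 times higher in the cells outside the class. Of the 15, 1 gene is not reported here. The 4 receptors and the gene lists were chosen with earlier results of these data known. TMM factors came from edgeR 4.0.16, and other work used scipy 1.17.1, pandas 2.3.3 and numpy 2.4.6 in Python 3.11.15. Tested on simulated data for the Siglecf comparison with 2177 genes, the calls held 66 of 66 with a 3-fold change, 63 of 63 with a 6-fold change and 0 of 71 with a 1.2-fold change. The simulated counts had counting error only, without spread between cells or a new draw of the cells with Siglecf. They therefore cannot show how far the calls depend on either. Alternatives covered filters, clustering, doublets, depth, scaling and leaving out clusters.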

Additional observations from a re-analysis of the deposited data

How the results depend on the processing

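No paired analysis was possible because the groups share only replicate number 1 and each has 1 library. For 55 results, 632 alternative values were computed, of which 503 stayed within the counting error or 1.5 times a count, 126 moved beyond it and 3 turned the sign of a ratio whose interval excluded 0, all 3 of them the ratio of Siglecf between libraries. That log2 ratio (-0.59) became 0.14 with TMM and 0.10 with median-of-ratios scaling, ranged from -1.14 (without cluster 3) to 0.50 (without cluster 8) when clusters were left out, and was -1.26 over the named clusters only, a choice made after seeing the data. In neutrophil-scoring cells the ratio of Siglece (0.63) became 1.35, 1.32, 0.38 to 0.86 and 0.18 under the same settings and 0.52 as a mean over cells, and that of Cd33 (0.86) became 1.59, 1.55, 0.70 to 1.11 and 0.45, and 0.80 as a mean over cells. In macrophage-scoring cells Cd33 (0.07, with an interval that includes 0) became -0.11 with the highest doublet scores removed, -0.21 with libraries clustered separately and -0.25 as a mean over cells, and a strict filter on cells gave -0.67 for Siglec1 (-0.93) and 0.97 for Siglece (1.28). The highest cluster for Siglecf (96.3 CPM in NRS, 67.0 in aCXCR2) had 49.8 and 32.7 CPM at resolution 0.5, 80.0 and 37.1 CPM with doublet scores removed, and 108 CPM in NRS as a mean over cells. Shares of cells with Siglecf (2.35% and 1.88% at 1000 UMIs) were 4.50% and 3.42% at 2000 UMIs and 1.12% and 0.751% at 500. Among them the share with Siglece (30.9% in NRS, 22.4% in aCXCR2) was 47.2% and 48.8% at 2000 UMIs and 19.5% in NRS at 500. The count of genes higher with Siglecf (172) was 611 at a minimum of 10 CPM, 57 with median of ratios, 90 with the strict filter and 70 within clusters, and that of lower genes (101) was 204, 186 and 52 under the first 3 and 53 in the lowest of 9 other draws. Only the clusters with 20 cells of each kind could be used within clusters. The cause of these movements was not tested, except that longer lists of genes, coarser clusters and deeper draws change the counts by construction. With 1 library per group, depth limits low genes such as Siglecf and leaves the spread between animals unmeasured.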

Other observations

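Cluster 6, which carried rod markers together with neutrophil markers (559 NRS and 131 aCXCR2 cells), held Siglecf, Siglece and Cd33 at levels between those of rod-like and neutrophil-scoring cells. Siglecf stood there at 11.7 CPM in NRS (8.39 to 15.9) and 4.39 CPM in aCXCR2 (1.61 to 9.55). Siglece had 153 and 222 CPM and Cd33 139.8 and 265 CPM. Lens-like cells, 62 in NRS and 7 in aCXCR2, had 22 CPM of Siglecf in NRS (9.49 to 43.3, 8 UMIs) and 0 UMIs in aCXCR2. In the small clusters outside these classes and the macrophage-scoring ones, Siglecg had a level of 14.9 CPM (NRS) and 40.4 CPM (aCXCR2).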
